A study of Mus musculus with 10 samples.

Results

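The genes described here encode the activins, myostatin, GDF15, follistatin, proteins related to follistatin and activin receptors. These 10 genes, chosen by symbol, are the ligands Inhba, Inhbb, Mstn and Gdf15 and the receptors Acvr1b, Acvr2a and Acvr2b. With them are Fst, Fstl1 and Fstl3, grouped here as binding proteins, which does not mean that each binds every ligand listed. They were 10 of the 57185 genes with counts in the table. All 10 passed the filter on low counts (over 10 counts in at least 6 of 10 mice) and so were among the 13453 genes tested. RNA-seq was performed on polyA-selected RNA from the apical part of the ventricles, labelled left ventricle, of male mice at 16 weeks of age, with 5 mice in each of 2 genotypes. The MLPKO group lacked Csrp3, which encodes muscle LIM protein (MLP), and carried floxed alleles of Rrad, which encodes the L-type calcium channel inhibitor RAD, without Cre. The cRADΔ/Δ-MLPKO group, MLPKO-cRADKO in the labels, had the same alleles plus MerCreMer driven by the Myh6 promoter, a cardiomyocyte promoter. Both groups received 1 intraperitoneal dose of tamoxifen of 100 mg/kg at 10 weeks of age, and the labels give collection as 1 month after tamoxifen, which does not match the labelled age of 16 weeks exactly. Tamoxifen was thus shared, whereas Rrad deletion and the Cre transgene cannot be told apart. MLP loss leads to dilated cardiomyopathy, and every mouse carried it, so no healthy heart stood in the comparison.

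Activins are dimers of inhibin beta chains. Together with myostatin and GDF11 they bind the type II receptors ACVR2A and ACVR2B, which recruit a type I receptor such as ACVR1B. The type I receptor then phosphorylates SMAD2 and SMAD3. Follistatin and FSTL3 bind these ligands outside the cell and block receptor contact. Myostatin is best known as a brake on skeletal muscle mass, activin A and FSTL3 are made by stressed heart tissue, and GDF15 is a stress-induced hormone that acts through GFRAL and RET in the hindbrain rather than through activin receptors.

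Total counts were 33457406 to 49965101 per mouse, and among genes with 1 to 20 counts 73.7% to 80.3% of the counts were even numbers. Gene-level Rrad was 140 to 282 CPM (counts relative to library size, scaled by the trimmed mean of M-values, TMM) in MLPKO and 135 to 202 CPM in cRADΔ/Δ-MLPKO (log2 fold change −0.38 ± 0.20 SE, edgeR adjusted p = 0.29). Csrp3 was 1010 to 3260 CPM in MLPKO and 691 to 1180 CPM in cRADΔ/Δ-MLPKO (log2 fold change −1.08 ± 0.29 SE, edgeR adjusted p = 0.0667). Rrad is deleted in cardiomyocytes only and Csrp3 in both groups, and a whole-gene count does not isolate the deleted exons. Both genes overlapped between the groups, so these values did not serve as a check of the labels. The summed level of 10 cardiomyocyte markers was 78500 to 89800 CPM in MLPKO and 60500 to 74200 CPM in cRADΔ/Δ-MLPKO, with no overlap. Endothelial markers (8 genes) summed to 994 to 1130 CPM and 1210 to 1370 CPM respectively, also without overlap, and the 11 macrophage markers to 158 to 226 CPM and 196 to 351 CPM. Of 13 skeletal muscle markers 3 (Myh4, Myf5 and Pax7) were at 0 in every mouse, and 4 passed the filter: Ckm, which heart muscle also expresses, at 393 to 675 CPM, and Actn3, Tnni2 and Mylpf at no more than 54 counts in any mouse. Of 6 atrial markers Sln and Bmp10 reached at most 12 and 4 counts, and 4 passed the filter: Myl7 with 15 to 152 counts, Myl4 with 53 to 655, Dkk3 with 108 to 482, and Nppa at 106 to 2440 CPM. The largest part of the cardiomyocyte sum was Myh6, with means of 36500 CPM in MLPKO and 29900 CPM in cRADΔ/Δ-MLPKO. Of the 10 cardiomyocyte markers 9 had a log2 fold change below 0 and 1, Tnni3 (0.13), above 0. EdgeR called 1 of them, Tnnt2 (lower), beside 1.80% of all genes lower. It called 1 of 8 endothelial, 2 of 7 tested mural and 1 of 9 fibroblast markers higher, beside 0.944% of all genes. No tested marker of the other lists was called by edgeR. DESeq2 called 3 cardiomyocyte and 1 epicardial or mesothelial marker lower, beside 6.09% of all genes. It called 4 endothelial, 5 macrophage, 2 mural and 1 fibroblast marker higher, beside 3.96%. In bulk tissue, fewer cells of a type and less RNA of the marker genes per cell cannot be told apart. The part of these marker differences in the results below was not tested.

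Promoter sequence is shown for 4 genes: Mstn, which had the largest fold change of the 10, Fstl3, which had the lowest adjusted p of the binding proteins, and Inhba and Inhbb, whose ratio separated the genotypes. Sequences were from the RefSeq promoter table of GRCm38.p6 and were placed on GRCm39 by exact match, with 1 match each. The table held 9 of the 10 genes, all but Fst. Each stretch runs 5′ to 3′ on the gene's strand and ends before the first annotated exon base. Capitals mark CAGAC, or GTCTG on the other strand, the letters of the SMAD-binding core.
Mstn, chr1:53100549-53100798, plus strand: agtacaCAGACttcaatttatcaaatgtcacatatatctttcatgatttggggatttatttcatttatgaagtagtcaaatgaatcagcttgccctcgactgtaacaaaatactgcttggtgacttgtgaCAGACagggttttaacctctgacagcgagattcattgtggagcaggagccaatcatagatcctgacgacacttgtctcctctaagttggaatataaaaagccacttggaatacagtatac
Fstl3, chr10:79612858-79613095, plus strand: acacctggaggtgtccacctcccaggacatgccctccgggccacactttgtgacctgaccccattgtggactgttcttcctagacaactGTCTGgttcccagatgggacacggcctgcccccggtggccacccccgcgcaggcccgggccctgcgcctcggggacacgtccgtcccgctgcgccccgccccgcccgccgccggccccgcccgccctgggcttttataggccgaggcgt
Inhba, chr13:16186186-16186372, plus strand: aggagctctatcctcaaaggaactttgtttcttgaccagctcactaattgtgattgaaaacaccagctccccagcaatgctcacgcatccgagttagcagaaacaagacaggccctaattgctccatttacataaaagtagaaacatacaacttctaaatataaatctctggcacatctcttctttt
Inhbb, chr1:119350022-119350228, minus strand: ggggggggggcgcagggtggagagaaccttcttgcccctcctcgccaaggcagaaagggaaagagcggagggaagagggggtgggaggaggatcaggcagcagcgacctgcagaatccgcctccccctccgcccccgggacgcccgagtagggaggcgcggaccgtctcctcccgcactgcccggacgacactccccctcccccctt

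Over the 250 bases before the RefSeq start of each gene, both strands were searched for CAGAC, for the E-box CANNTG and for TATAAA. Mstn held 2 CAGAC matches, at −244 and −120 from the start, 4 CANNTG matches and TATAAA at −29. Fstl3 held 2 CAGAC matches, at −161 and −14, of which the first lies in the printed stretch, and 3 CANNTG matches. It held TATAAA at −29 on the other strand only, printed as its complement TTTATA, whereas that of Mstn is on the gene's strand. Inhba had TATAAA at −91 and neither of the others, and Inhbb had none of the 3. CAGAC was found in 42.2%, CANNTG in 66.2% and TATAAA in 12.4% of 32851 promoters of this length, so CAGAC and CANNTG are common. The activin chains also differed in base composition, with 43.2% G or C in Inhba and 68.0% in Inhbb, beside a median of 52.4% over all promoters. Mstn was the poorest in G and C of the genes matched (38.4%) and Acvr2a the richest (82.0%). These matches describe the letters and are not evidence of binding.

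Per kilobase of exon, which allows genes to be compared, Fstl1 was the most abundant of the 10 genes in MLPKO (12.4 ± 2.63 CPM per kb, SD, n = 5), followed by Acvr1b (5.55 ± 0.404), Acvr2a (2.73 ± 0.203), Fstl3 (2.72 ± 1.16), Gdf15 (1.70 ± 0.253), Inhbb (1.08 ± 0.466), Inhba (1.00 ± 0.988), Mstn (0.24 ± 0.114), Acvr2b (0.184 ± 0.0339) and Fst (0.138 ± 0.081). Fstl1, a secreted glycoprotein related to follistatin, stood above the range of Acvr1b, Acvr1b above that of Acvr2a, and Inhba above that of Mstn. The ranges of all other neighbours in this order overlapped. In cRADΔ/Δ-MLPKO the first 3 genes were the same, and Inhbb (1.6 ± 0.241 CPM per kb) came next, followed by Fstl3 (1.47 ± 0.408), Gdf15 (0.922 ± 0.498) and Inhba (0.479 ± 0.169). Acvr2b (0.279 ± 0.0349), Fst (0.247 ± 0.068) and Mstn (0.0884 ± 0.0653) closed the order. The ranges of Acvr2a and Inhbb, of Inhba and Acvr2b and of Fst and Mstn did not overlap, whereas those from Inhbb through Inhba overlapped from one neighbour to the next, as did those of Acvr2b and Fst. Mstn lay below the range of every other gene in this group, whereas in MLPKO its range overlapped that of Acvr2b.

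None of the 10 genes passed an edgeR adjusted p of 0.05, beside 369 of all 13453 genes (2.74%, of which 1.80% were lower and 0.944% higher in cRADΔ/Δ-MLPKO). In limma-voom the count was also 0, beside 2.53% of all genes (1.61% lower and 0.914% higher). At an unadjusted edgeR p under 0.05 there were 6 members, Mstn, Gdf15 and Fstl3 lower and Inhbb, Fst and Acvr2b higher, beside 21.6% of all genes. DESeq2 called 3 members, Gdf15 and Fstl3 lower and Acvr2b higher, with 10.0% of all genes called, 6.09% lower and 3.96% higher. It gave no adjusted p for Inhba and Mstn. For 7 of the 10 genes the log2 fold change was 0.5 or more in either direction, beside 9.51% of all genes, and the median size was 0.71, beside 0.14 over all genes tested. The 10 genes were chosen with earlier results of these data known, and all genes tested were not matched to them for level. Per kilobase of exon, the members ran from percentile 7.49 (Mstn), 8.91 (Fst) and 10.6 (Acvr2b) to 86.8 (Fstl1) of the genes tested. The shares in this paragraph are therefore no test of the set. The direction was mixed, with 6 below 0 and 4 above 0 and a median of −0.07, beside 0.011 over all genes. No member had CPM values free of overlap between the genotypes, beside 6.62% of all genes. The fitted values, with the intervals and the effect of leaving out single mice, are drawn in the plot of fold changes.

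**Figure D1:**
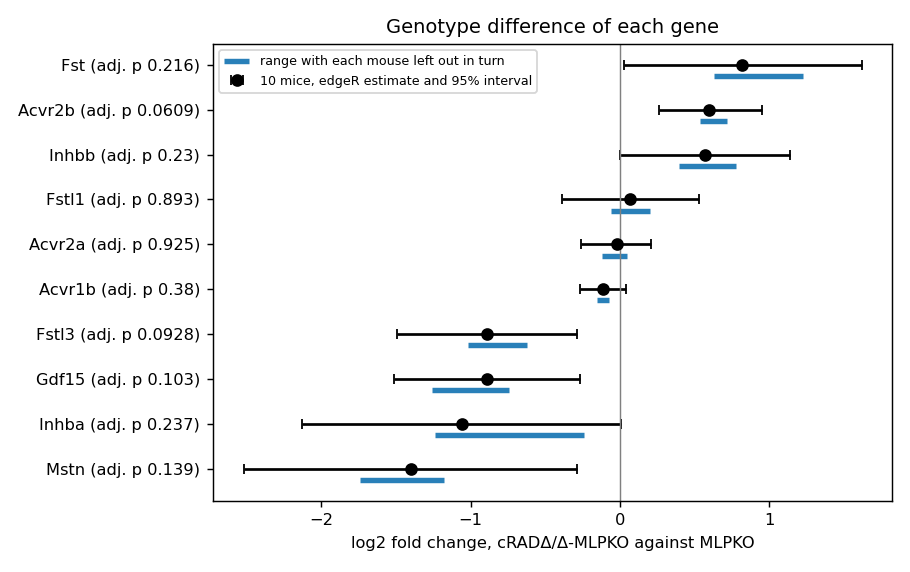
Log2 fold change of each gene, cRADΔ/Δ-MLPKO against MLPKO (horizontal axis), with the edgeR estimate and 95% interval from 10 mice (black) and the lowest and highest estimate when each mouse was left out in turn (blue bar). Mstn, Inhba, Gdf15 and Fstl3 lie between −1.40 and −0.89, Inhbb, Acvr2b and Fst between 0.57 and 0.82, and the adjusted p beside each name is above 0.05 throughout.

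Inhba (chromosome 13, 16186373 to 16206206, plus strand), which encodes the beta A chain of activin A, was 4.85, 19.6, 3.59, 3.36 and 4.15 CPM in MLPKO mice 1 to 5 and 5.09, 2.40, 4.26, 2.54 and 2.76 CPM in cRADΔ/Δ-MLPKO mice 1 to 5. MLPKO mouse 2 stood far above the rest, and the remaining 9 mice overlapped. Inhba had a log2 fold change of −1.06 ± 0.49 (SE, 95% interval −2.13 to 0.01, edgeR adjusted p = 0.237), which became −0.24 ± 0.236 (adjusted p = 0.619) without MLPKO mouse 2. That mouse also had the highest summed blood markers of the 10 (2800 CPM) and the highest atrial sum (2460 CPM). Nearly all of the latter was Nppa (2440 CPM), a natriuretic peptide gene that failing ventricles also express.

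Inhbb (chromosome 1, 119343193 to 119350021, minus strand) encodes the beta B chain of activin B. Its levels were 6.15, 7.16, 3.28, 2.29 and 4.35 CPM in MLPKO and 7.36, 6.53, 8.30, 5.50 and 6.78 CPM in cRADΔ/Δ-MLPKO. All 5 cRADΔ/Δ-MLPKO mice lay above the MLPKO median and were the tighter group (6.90 ± 1.04 against 4.65 ± 2.01 CPM, SD), although MLPKO mice 1 and 2 reached into their range. The log2 fold change was 0.57 ± 0.26 (SE, 95% interval 0.00 to 1.14), with an edgeR adjusted p of 0.23. The highest value was in cRADΔ/Δ-MLPKO mouse 3, in which 6 adipocyte markers summed to 89.3 CPM beside at most 0.927 CPM in the other mice, and without it the log2 fold change of Inhbb was 0.51 (adjusted p = 0.37).

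Mstn (chromosome 1, 53100799 to 53107240, plus strand), which encodes myostatin, was close to the limit of detection, with 8 to 40 counts in MLPKO and 2 to 20 in cRADΔ/Δ-MLPKO. These corresponded to 0.416, 0.254, 0.711, 0.987 and 0.882 CPM in MLPKO and 0.0598, 0.174, 0.109, 0.401 and 0.452 CPM in cRADΔ/Δ-MLPKO. All 5 cRADΔ/Δ-MLPKO mice lay below the MLPKO median, and MLPKO mice 1 and 2 overlapped with cRADΔ/Δ-MLPKO mice 4 and 5. The mean in cRADΔ/Δ-MLPKO was 36.8% of that in MLPKO. The log2 fold change of −1.40 ± 0.51 (SE, 95% interval −2.52 to −0.29) had the largest size of the 10 genes and stayed between −1.74 and −1.18 when each mouse was left out, but the edgeR adjusted p was 0.139. Low counts were mostly even, and how read pairs were counted was not given in the sources used here: if both reads of a pair were counted, the 2 counts of cRADΔ/Δ-MLPKO mouse 1 are 1 fragment, and the low counts of Mstn and Fst stand for correspondingly fewer fragments. With all counts halved the log2 fold change of Mstn was −1.37 (edgeR adjusted p = 0.129) and that of Fst 0.81 (adjusted p = 0.209).

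Gdf15 (chromosome 8, 71082038 to 71091537, minus strand), the stress hormone, showed the clearest separation among the ligands, with 3.93, 3.74, 3.83, 4.69 and 3.09 CPM in MLPKO and 1.56, 1.22, 4.04, 1.63 and 1.99 CPM in cRADΔ/Δ-MLPKO. Apart from mouse 3, every cRADΔ/Δ-MLPKO mouse lay below every MLPKO mouse. The mean was 54.1% of that in MLPKO, and the log2 fold change was −0.89 ± 0.29 (SE, 95% interval −1.51 to −0.27, edgeR adjusted p = 0.103, DESeq2 adjusted p = 0.0256). Without cRADΔ/Δ-MLPKO mouse 3, the mouse with adipocyte markers and also the highest macrophage sum (351 CPM), Gdf15 fell by 1.26 on the log2 scale (edgeR adjusted p = 0.0246). That mouse stood out by its own Gdf15 value, so the fit without it is not separate support. The exons of Gdf15 share 17.3% of their bases with the antisense gene Gm34154, and whether counting used strand was not given in the sources used here.

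**Figure D2:**
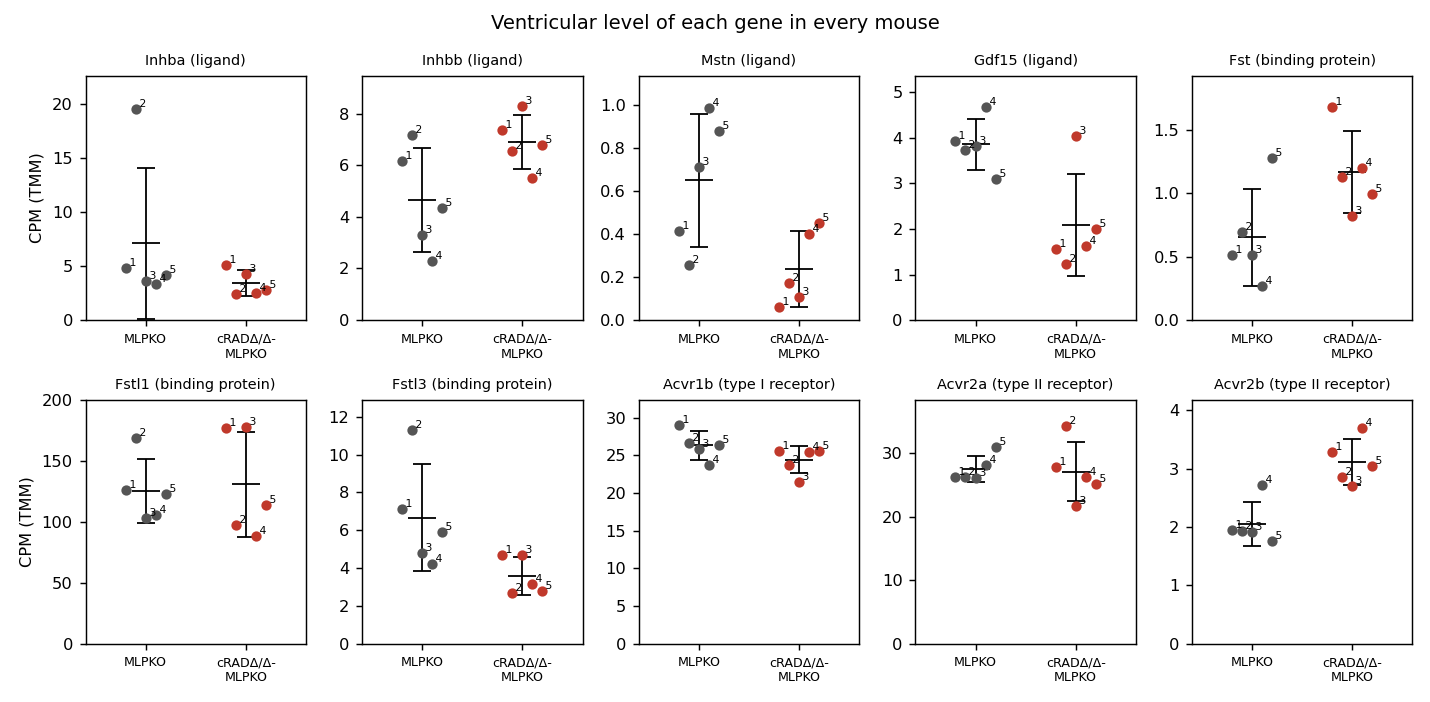
CPM of each of the 10 genes (vertical axes, each from 0) in MLPKO (grey) and cRADΔ/Δ-MLPKO (red), 1 numbered point per mouse, with the mean and SD of 5 mice as bars. MLPKO mouse 2 carries the Inhba difference, cRADΔ/Δ-MLPKO mouse 3 is the only one of its group within the MLPKO range for Gdf15, and Acvr1b, Acvr2a and Fstl1 overlap widely.

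Among the binding proteins, Fstl3 and Fst had log2 fold changes of opposite sign. Fstl3 (chromosome 10, 79613096 to 79618464, plus strand), which encodes a secreted inhibitor of activin and myostatin, was 7.12, 11.3, 4.78, 4.19 and 5.91 CPM in MLPKO and 4.67, 2.68, 4.70, 3.16 and 2.80 CPM in cRADΔ/Δ-MLPKO. The 3 lowest cRADΔ/Δ-MLPKO mice lay below all MLPKO mice, and mice 1 and 3 lay among the lower MLPKO values. The mean was 54.0% of that in MLPKO, with a log2 fold change of −0.89 ± 0.27 (SE, 95% interval −1.49 to −0.29, edgeR adjusted p = 0.0928, DESeq2 adjusted p = 0.0174). Fstl3 had an edgeR adjusted p of 0.0477 without MLPKO mouse 4 (log2 fold change −1.02) and of 0.135 without MLPKO mouse 2 (−0.62). These mice held the lowest and the highest MLPKO value of Fstl3, so neither fit is separate support. Without MLPKO mouse 4, 826 of all 13453 genes passed an edgeR adjusted p of 0.05, beside 369 with all 10 mice. The exons of Fstl3 share 47.1% of their bases with Prss57 on the other strand, which held at most 4 counts in any mouse. Strand use in counting was not given, so part of the Fstl3 count is uncertain, and the low Prss57 count does not settle it.

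Fst (chromosome 13, 114588731 to 114595521, minus strand), which encodes follistatin, was 0.509, 0.697, 0.513, 0.267 and 1.28 CPM in MLPKO and 1.68, 1.13, 0.819, 1.20 and 0.995 CPM in cRADΔ/Δ-MLPKO. All cRADΔ/Δ-MLPKO mice lay above 4 of the 5 MLPKO mice, and MLPKO mouse 5 was the exception. Counts were low, at 10 to 58 per mouse. The log2 fold change was 0.82 ± 0.36 (SE, 95% interval 0.03 to 1.62, edgeR adjusted p = 0.216) and reached 1.23 (adjusted p = 0.0914) without MLPKO mouse 5. That mouse stood out by its own Fst value, so the fit without it is not separate support.

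Fstl1 (chromosome 16, 37597105 to 37656876, plus strand) was 126, 169, 103, 106 and 123 CPM in MLPKO and 177, 97.9, 178, 88.2 and 114 CPM in cRADΔ/Δ-MLPKO, with wide overlap. The log2 fold change was 0.07 ± 0.21 (SE, 95% interval −0.39 to 0.53, edgeR adjusted p = 0.893), and it was −0.06 without cRADΔ/Δ-MLPKO mouse 1 or without mouse 3. Mice 1 and 3 were the highest of the cRADΔ/Δ-MLPKO group for Fstl1, Fstl3 and Inhba alike, and MLPKO mouse 2 was the highest of its group for these 3 genes and for Inhbb. The fibroblast markers, 9 genes, summed highest in cRADΔ/Δ-MLPKO mouse 1 (3380 CPM) and MLPKO mouse 2 (3050 CPM), beside 2260 to 2830 CPM in the other mice. Mouse 3 of the cRADΔ/Δ-MLPKO group, at 2750 CPM, lay below its mouse 2 (2830 CPM). Their part in the levels of these genes was not tested.

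Of the receptors, Acvr2b had the log2 fold change of greatest size. Acvr2b (chromosome 9, 119231103 to 119271213, plus strand), a type II receptor with high affinity for activin and myostatin, was 1.94, 1.93, 1.91, 2.72 and 1.76 CPM in MLPKO and 3.29, 2.85, 2.70, 3.70 and 3.05 CPM in cRADΔ/Δ-MLPKO. Of the cRADΔ/Δ-MLPKO mice, 4 lay above all MLPKO mice, and the overlap was only between MLPKO mouse 4 and cRADΔ/Δ-MLPKO mouse 3. The mean was 152% of MLPKO, and the log2 fold change of 0.60 ± 0.16 (SE, 95% interval 0.26 to 0.95) had the smallest adjusted p of the 10 genes, 0.0609 in edgeR and 0.0101 in DESeq2. Without MLPKO mouse 4 it was 0.72, with an edgeR adjusted p of 0.0244. That mouse is the one in the overlap. Without it 826 of all 13453 genes passed an edgeR adjusted p of 0.05, beside 369 with all 10 mice. Acvr2b held 61 to 166 counts per mouse and shares 13.1% of its exon bases with 4930516B21Rik on the other strand, which held 22 to 85 counts, so part of its count is uncertain.

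Acvr2a (chromosome 2, 48703743 to 48793283, plus strand), the other type II receptor, was 26.2, 26.3, 26.1, 28.1 and 30.9 CPM in MLPKO and 27.8, 34.3, 21.7, 26.3 and 25.1 CPM in cRADΔ/Δ-MLPKO. Its log2 fold change was −0.02 ± 0.11 (SE, 95% interval −0.26 to 0.21, edgeR adjusted p = 0.925). Acvr2a shares 30.5% of its exon bases with Orc4 on the other strand, which held 590 to 959 counts, so part of its count is uncertain. Acvr1b (chromosome 15, 101071921 to 101111565, plus strand), the type I receptor of activin, was 23.8 to 29.1 CPM in MLPKO and 21.5 to 25.6 CPM in cRADΔ/Δ-MLPKO, a log2 fold change of −0.11 ± 0.07 (SE, 95% interval −0.27 to 0.04, edgeR adjusted p = 0.38).

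Ratios within a mouse do not depend on library scaling. After division by exon length, 4 ratios and 3 sums of these genes were formed, with the pairs chosen after their values had been seen, so they are given without a test. The Inhbb to Inhba ratio was 2.10, 0.603, 1.51, 1.13 and 1.73 in MLPKO and 2.39, 4.51, 3.22, 3.58 and 4.07 in cRADΔ/Δ-MLPKO. Every cRADΔ/Δ-MLPKO mouse therefore lay above every MLPKO mouse in the balance of activin B to activin A chain, with means of 3.56 ± 0.812 and 1.41 ± 0.573 (SD, n = 5). The summed activin chains were 2.11, 4.43, 1.27, 1.01 and 1.59 CPM per kb in MLPKO and 2.43, 1.86, 2.53, 1.64 and 1.97 CPM per kb in cRADΔ/Δ-MLPKO. The means of 2.08 ± 1.38 and 2.08 ± 0.382 coincide through MLPKO mouse 2, and the other MLPKO mice did not exceed 2.11.

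The activin chains relative to their binding proteins, (Inhba + Inhbb) to (Fst + Fstl3), were 0.702, 0.929, 0.617, 0.571 and 0.595 in MLPKO and 1.08, 1.39, 1.21, 1.06 and 1.45 in cRADΔ/Δ-MLPKO, again with no overlap. The sum of Fst and Fstl3 was 2.85 ± 1.18 CPM per kb in MLPKO and 1.71 ± 0.43 CPM per kb in cRADΔ/Δ-MLPKO, and these sums overlapped. Most of this sum was Fstl3, with means of 2.72 and 1.47 CPM per kb, beside 0.138 and 0.247 for Fst. The ratio therefore largely sets the activin chains against Fstl3, part of whose count is uncertain. How often ratios of other genes are free of overlap was not examined. The Fstl3 to Fst ratio was 8.88 to 31.3 in MLPKO and 4.55 to 11 in cRADΔ/Δ-MLPKO, overlapping through MLPKO mouse 5 and cRADΔ/Δ-MLPKO mouse 3. The Acvr2a to Acvr2b ratio was 15.2 ± 2.83 in MLPKO and 9.72 ± 2.10 in cRADΔ/Δ-MLPKO, with overlap, while the sum of both type II receptors was 2.91 ± 0.205 and 2.96 ± 0.462 CPM per kb. All of these are ratios of RNA and give no amount of protein.

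**Figure D3:**
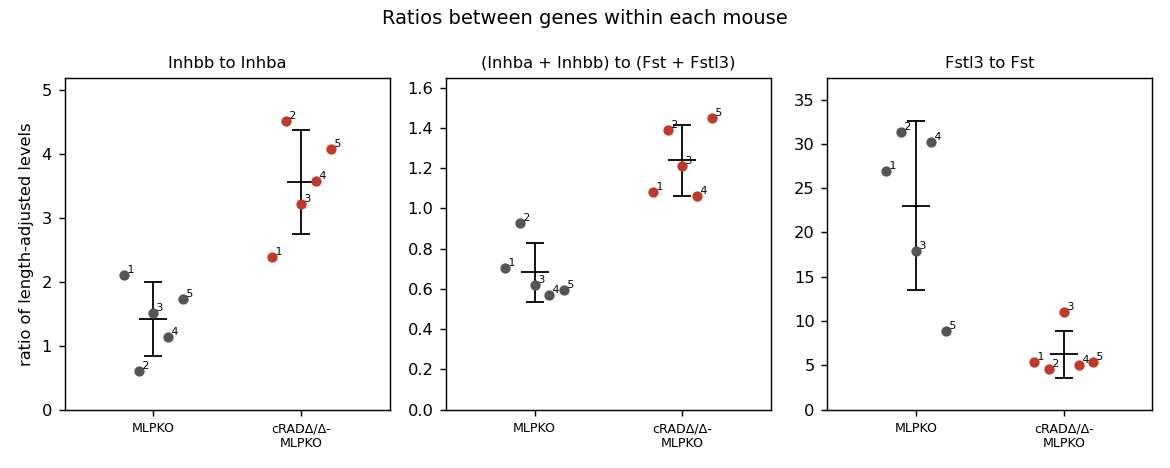
Ratios of levels adjusted for exon length within each mouse (vertical axes, from 0), 1 numbered point per mouse, with mean and SD of 5 mice per genotype as bars. Inhbb to Inhba and the activin chains to their binding proteins do not overlap between the genotypes (lowest cRADΔ/Δ-MLPKO values 2.39 and 1.06, highest MLPKO values 2.10 and 0.929), whereas Fstl3 to Fst does. The ratios were chosen after their values had been seen.

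The rest of the pathway was read from lists of 76 genes chosen by function, of which 60 passed the filter. None passed an edgeR adjusted p of 0.05. DESeq2 called 2 lower and 3 higher, a share below the 10.0% of all genes that it called (6.09% lower and 3.96% higher), so these calls do not set the lists apart. Their median log2 fold change was 0.00, with 29 genes below 0 and 31 above 0. Of 7 other ligands 2 were tested. Gdf11, the closest relative of myostatin, was 1.49 to 2.21 CPM in MLPKO and 2.31 to 2.74 CPM in cRADΔ/Δ-MLPKO, without overlap (log2 fold change 0.55 ± 0.15 SE, edgeR adjusted p = 0.0698, DESeq2 adjusted p = 0.021). Inha, the alpha chain that turns activin chains into inhibin, had a log2 fold change of −0.38 ± 0.20 (adjusted p = 0.284).

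Of 12 other receptors and co-receptors, 8 were tested, and DESeq2 called 1 in each direction, beside 6.09% of all genes lower and 3.96% higher. Bambi, a decoy receptor without a kinase domain, was 28.3 ± 4.52 CPM in MLPKO and 18.8 ± 4.76 CPM in cRADΔ/Δ-MLPKO (SD, n = 5; edgeR adjusted p = 0.0768, DESeq2 adjusted p = 0.0142). With the mouse number as a block it passed in edgeR (adjusted p = 0.0307), but the numbers do not pair the mice, so that fit adds no support. Ret, the kinase through which GDF15 signals, was 2.90 ± 0.933 and 4.66 ± 1.11 CPM (edgeR adjusted p = 0.111, DESeq2 adjusted p = 0.0412). Its partner Gfral had 0 counts in every mouse.

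Of the other groups, the 7 processing enzymes, all tested, held 1 gene called higher by DESeq2, beside 3.96% of all genes. This was Pcsk6, a proprotein convertase, at 37.3 ± 8.98 CPM in MLPKO and 54.7 ± 6.14 CPM in cRADΔ/Δ-MLPKO (log2 fold change 0.55 ± 0.14 SE, edgeR adjusted p = 0.0609, DESeq2 adjusted p = 0.00752). With the mouse number as a block, which does not pair the mice, its edgeR adjusted p was 0.0385. Pcsk7 had a log2 fold change of 0.18 (edgeR adjusted p = 0.172). Of 13 other binding proteins and antagonists 9 were tested and none was called by either tool, with the matrix proteoglycan Bgn at −0.45 (edgeR adjusted p = 0.195) and the latent TGF-beta binding protein Ltbp3 at −0.18 (adjusted p = 0.354). Of 11 SMADs and co-factors 10 were tested and none was called, with log2 fold changes of 0.19 for the signal transducer Smad3 and −0.12 for the ubiquitin ligase Smurf1.

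Of 14 response genes, all tested, DESeq2 called 2 lower (6.09% of all genes), Bambi among them, and edgeR none, with a median log2 fold change of −0.10. Ccn2, which encodes a matricellular protein and was picked out after its values were seen, had the lowest log2 fold change of the list, −1.29 ± 0.65 (adjusted p = 0.278), and rested on MLPKO mouse 2, at −0.19 without it. The ubiquitin ligases of muscle atrophy, named for their role downstream of myostatin, were Fbxo32 and Trim63, with log2 fold changes of −0.04 and 0.08. Of 16 genes of the integrated stress response, the programme that induces Gdf15, 14 were tested and none was called by either tool, with a median of −0.03 and Psat1 at −0.53 (edgeR adjusted p = 0.161) and Atf5 at 0.17 (adjusted p = 0.443).

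**Figure D4:**
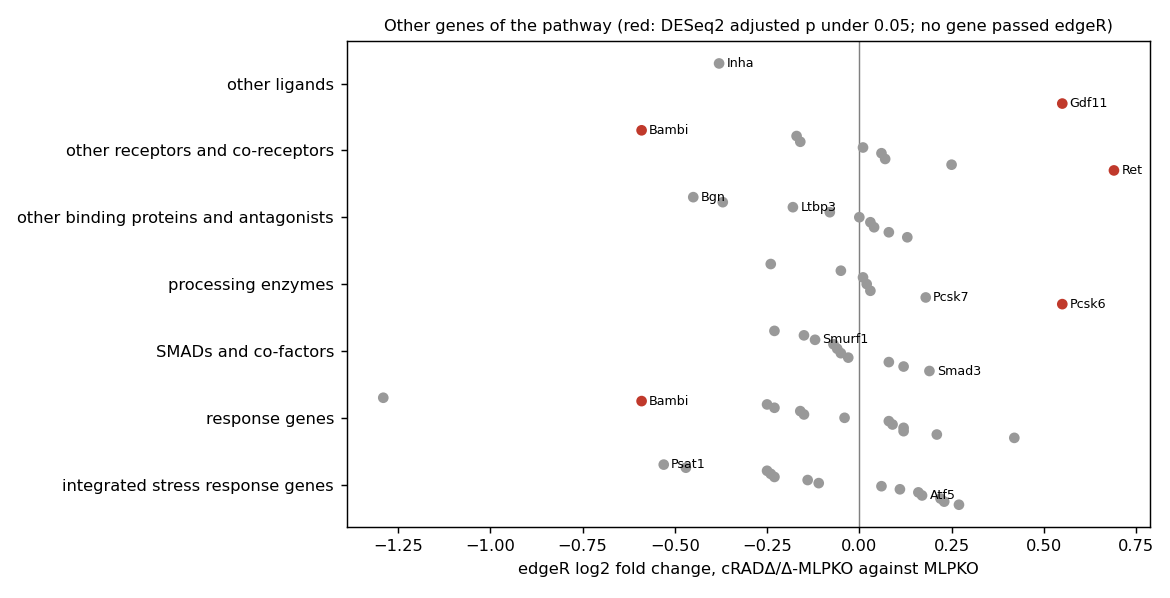
The edgeR log2 fold change, cRADΔ/Δ-MLPKO against MLPKO (horizontal axis), of the tested genes in the 7 lists of other pathway genes (rows), 1 point per gene and 1 gene not drawn, with red points for DESeq2 adjusted p under 0.05. Gdf11, Ret and Pcsk6 lie between 0.55 and 0.69 and Bambi at −0.59 (in both lists that hold it), and most other genes lie near 0.

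The genes whose levels followed Acvr2b most closely over the 10 mice were Sema6a (Pearson r = 0.975, Spearman rho = 0.855), H6pd (r = 0.957), Cecr2 (r = 0.956), Phactr3 (r = 0.952) and Ric3 (r = 0.951), on log2 CPM. The correlations within genotype were 0.815 to 0.906. Part of each r is the genotype difference that these genes share: H6pd (log2 fold change 0.32), Cecr2 (0.51) and Phactr3 (1.99) rose in cRADΔ/Δ-MLPKO with edgeR adjusted p values of 0.0226, 0.029 and 0.0207. Sema6a and Ric3 had edgeR adjusted p values of 0.0662 and 0.076.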

How the data were processed

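RNA-seq libraries of 10 hearts were aligned by the authors with STAR to GRCm39 and counted per gene with featureCounts. The deposited table holds raw counts. Strand and read-pair settings were not given in the sources used here, and most low counts were even numbers. Of 60676 rows, 3491 were empty and 57185 held counts. Symbols, exon lengths and coordinates came from GENCODE M39, which lacked 556 of the identifiers. The filter required over 10 counts in 6 or more of the 10 mice and dropped genes named Gm or Rik, which left 13453 genes. Genotypes were compared with edgeR 4.0.16 (TMM scaling, quasi-likelihood test, Benjamini-Hochberg adjustment over all genes tested) in R 4.3.3. DESeq2 1.42.0, limma 3.58.1 (voom), other scalings and filters, a block for the mouse number and the omission of each mouse were alternatives. The code was tested on simulated data. Standard errors were derived from the quasi-likelihood F statistic.

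The genes and lists were chosen with earlier results of these data known. Named were all 10 genes, up to 2 genes of smallest p per pathway list, and the 5 genes most correlated with the member of smallest p. Totals of 33457406 to 49965101 counts per mouse limit low genes such as Mstn and Fst. No pair of libraries was a duplicate (0.483% to 1.06% of genes with identical counts). Each library is labelled as a separate mouse heart. Mouse numbers are shared by the groups, but same-numbered mice did not deviate together, with correlations of −0.0442 to 0.152. The values of 1 named response gene are not reported here.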

Additional observations from a re-analysis of the deposited data

Results flagged for a closer look

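Over 46 groups of 5 mice examined (the 10 genes and the named pathway genes in each genotype), 5 held 1 mouse far from the other 4 by Dixon's test. The threshold flags about 1 in 20 groups of independent, normally distributed values. These groups share mice and the pathway genes were named by smallest p, so the 5 flags are not shown to be an excess. Inhba was 19.6 CPM in MLPKO mouse 2 and 3.36 to 4.85 CPM in the other 4. Bgn, in the same mouse, was 576 CPM beside 354 to 406 CPM. Gdf15 was 4.04 CPM in cRADΔ/Δ-MLPKO mouse 3 and 1.22 to 1.99 CPM in the rest of its group. Acvr2b was 2.72 CPM in MLPKO mouse 4, beside 1.76 to 1.94 CPM, and Gdf11 was 2.21 CPM in MLPKO mouse 5, beside 1.49 to 1.65 CPM.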

How the results depend on the processing

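The number of genes past an adjusted p of 0.05 was 369 in edgeR, 1298 in DESeq2, 281 with a replicate block, and 47 (without MLPKO mouse 5) to 826 (without MLPKO mouse 4) when single mice were left out. Among the 10 genes it was 0, with 3 in DESeq2 and 0 to 2 when mice were left out, and among the 60 tested pathway genes 0, with 5 in DESeq2 and 0 to 5. The replicate block, in which mouse numbers were taken as pairs, gave 0 of the 10 genes and 2 pathway genes (Bambi and Pcsk6). The numbers name mice and do not pair them.

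DESeq2 left the log2 fold changes of Gdf15 (−0.89), Fstl3 (−0.89) and Acvr2b (0.60) the same but called them. Omission of single mice gave −1.26 to −0.74 for Gdf15, −1.02 to −0.62 for Fstl3 and 0.54 to 0.72 for Acvr2b. Fstl1 ran from −0.06 to 0.20 and Acvr2a from −0.12 to 0.05, crossing 0, with Acvr2a at 0.02, 0.05 and 0.01 without MLPKO mouse 5, cRADΔ/Δ-MLPKO mouse 3 and mouse 5. The cause was not tested. The direction of the other 8 genes held under all alternatives. Counts halved, an alternative added after seeing the data, gave 362 genes and 0 of the 10.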
